A study of Arabidopsis thaliana with 4 samples.

Results

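Arabidopsis thaliana packs its DNA around nucleosomes whose H2A subunit comes in several forms, and the genes for 10 of these subunits were examined here for open chromatin: HTA8 (AT2G38810), HTA9 (AT1G52740), HTA11 (AT3G54560) and HTA4 (AT4G13570) for the variant H2A.Z, HTA1 (AT5G54640), HTA2 (AT4G27230), HTA10 (AT1G51060) and HTA13 (AT3G20670) for canonical H2A, and HTA3 (AT1G54690) and HTA5 (AT1G08880) for the variant H2A.X. They are 10 of the 27444 protein-coding genes on the nuclear chromosomes. A peak was counted for a gene when its summit lay between 1 kb upstream of the transcription start site (TSS) and the end of the gene, and 66 of the 170783 deposited peaks met this rule. Each entry of a list counted as a peak, and entries with different summits can share a called interval, as at HTA8. ATAC-seq, in which the Tn5 transposase inserts adaptors into accessible DNA, was performed on nuclei from flowers of 4-week-old soil-grown Columbia-0 plants in long days. There were 2 wild-type libraries and 2 libraries of mbd9-3, a T-DNA insertion line of MBD9, a single mutant allele with no second allele or rescued line in the ATAC-seq set. Per the labels both replicates of a genotype were collected from plants of the same age, and nothing in them says whether these were separate sowings, so the spread between replicates may be technical.

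Canonical H2A is made in quantity while DNA is being copied, whereas H2A.Z is placed into existing nucleosomes throughout the cell cycle by the SWR1 remodelling complex, with which MBD9 associates. H2A.Z sits mostly at the first nucleosome after the TSS and over the bodies of responsive genes, where it has been linked to both poised and active states. H2A.X carries a C-terminal motif that is phosphorylated at DNA breaks, and H2A.W, encoded by HTA6, HTA7 and HTA12, marks heterochromatin. The comparison asked whether the genes that supply H2A.Z differ in promoter accessibility from those that supply canonical H2A, and whether loss of the SWR1-associated MBD9 changed either. Because fold enrichments from separately called lists are not on one scale, each peak was given a percentile, the rank of its fold enrichment among all peaks of its own library, and a gene took the value of its strongest peak.

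Selected stretches at these genes are printed below. They are the 160 intergenic bases before the TSS of the 4 canonical genes and of HTA11 and HTA4, the H2A.Z genes with few or no peaks, together with the stretches that hold the distant summits of HTA8 and HTA3. All are read 5′ to 3′ on the strand of the gene from TAIR10.1, with positions counted from the TSS as 0. Capitals mark matches to the motifs described next.
HTA13 chr3:7229230-7229389 (+ strand, -160 to -1): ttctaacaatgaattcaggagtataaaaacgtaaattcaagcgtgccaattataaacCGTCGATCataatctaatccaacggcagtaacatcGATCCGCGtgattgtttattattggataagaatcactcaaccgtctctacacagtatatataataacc
HTA10 chr1:18926651-18926810 (+ strand, -160 to -1): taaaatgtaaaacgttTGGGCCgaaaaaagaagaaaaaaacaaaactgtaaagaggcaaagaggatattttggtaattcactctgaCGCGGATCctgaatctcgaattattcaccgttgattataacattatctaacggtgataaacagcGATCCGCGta
HTA1 chr5:22196127-22196286 (+ strand, -160 to -1): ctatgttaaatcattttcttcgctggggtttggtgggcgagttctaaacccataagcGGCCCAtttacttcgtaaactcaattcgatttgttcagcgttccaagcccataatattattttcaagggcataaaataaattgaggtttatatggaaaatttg
HTA2 chr4:13638450-13638609 (- strand, -160 to -1): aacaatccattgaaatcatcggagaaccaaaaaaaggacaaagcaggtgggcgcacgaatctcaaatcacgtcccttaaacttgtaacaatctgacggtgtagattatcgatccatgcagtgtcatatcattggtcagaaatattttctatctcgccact
HTA11 chr3:20195980-20196139 (+ strand, -160 to -1): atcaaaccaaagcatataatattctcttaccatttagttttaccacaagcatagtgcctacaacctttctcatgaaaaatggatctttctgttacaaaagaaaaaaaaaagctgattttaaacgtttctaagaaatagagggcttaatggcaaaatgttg
HTA4 chr4:7884356-7884515 (+ strand, -160 to -1): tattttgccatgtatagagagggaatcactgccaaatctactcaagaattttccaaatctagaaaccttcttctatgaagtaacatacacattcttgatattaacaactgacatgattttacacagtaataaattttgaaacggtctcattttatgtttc
HTA8 chr2:16221599-16221758 (- strand, -830 to -671): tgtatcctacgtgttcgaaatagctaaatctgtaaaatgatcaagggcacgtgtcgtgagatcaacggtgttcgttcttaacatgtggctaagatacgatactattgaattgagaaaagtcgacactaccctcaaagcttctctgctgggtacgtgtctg
HTA3 chr1:20415578-20415697 (- strand, -410 to -291): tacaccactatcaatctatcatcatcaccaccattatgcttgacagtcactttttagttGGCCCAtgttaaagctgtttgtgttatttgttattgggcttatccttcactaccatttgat

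Histone genes of plants are known for a promoter octamer, CGCGGATC, that is linked to transcription in S phase, and for a nonamer with the core GATCGACG. Both were searched on both strands from 250 bases before the TSS to 49 after it. The octamer was present in the promoters of HTA13 and HTA10 among the 4 canonical genes and in none of the 4 H2A.Z genes, and 40 of all 27444 promoters (0.146%) held it. HTA10 held it in both orientations, at −74 to −67 and at −10 to −3, and HTA13 held it at −68 to −61. HTA13 alone held the nonamer core, at −103 to −96, which 79 promoters (0.288%) contained. Of the 40 promoters with the octamer, 33 (82.5%) belonged to genes with a peak in all 4 libraries, against 58.1% of all genes, and 17 (42.5%) had the strongest summit within 150 bp of the TSS in every library, against 19.8%. Of the 79 with the nonamer core, 52 (65.8%) had a peak in all 4 libraries and 26 (32.9%) a summit that close. These shares are a description and carry no test.

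The remaining motifs were searched in the same window. The site II element TGGGCC, found in 15.5% of promoters, matched in HTA1, HTA2 and HTA10 and, among the H2A.Z genes, in HTA8 alone. The telo box AAACCCTA, found in 6.22%, matched in HTA8 at 37 to 44 after the TSS and in HTA3 at −7 to 0. The hexamer ACGTCA (9.19% of promoters) and the E2F words TTTCCCGC and TTTGGCGC (1.21%) matched in none of the 10 genes. HTA9, HTA11, HTA4 and HTA5 held no match to any of the 6 motifs in this window, which says only that these letters are not there. A coding start of HTA4 lies 0 bp from its annotated TSS, so its window may be placed unlike those of the other genes.

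Facts of the libraries that touch these genes are as follows. Wild-type lists held 44004 and 43962 peaks, those of mbd9-3 45208 and 37609. The lowest background solved from the peak values, a measure of relative depth, was 1.75 and 2.15 tags in the wild type, against 1.72 and 1.79 in the mutant, so by this measure wild type replicate 2 was the deepest library and mbd9-3 replicate 2 had the shortest list. Absolute read depth was not given in the sources used here. AP1, AG and SEP3, which specify floral organs, had a peak in all 4 libraries, AP3 in 2 and PI in 1. MBD9 itself had a peak in each library, at a mean percentile of 30.7 ± 28.2 for the wild type against 32.4 ± 38.1 for the mutant (SD over 2 libraries each). Its strongest summit lay at 216 and 2178 in the wild type, against 632 and −886 in the mutant, so no single site was compared. These peaks do not check the insertion. The windows of 9 of the 10 genes were at least 98.95% unique at a length of 50 bases, and that of HTA4 was 93.2% unique, with 89.7% upstream of its TSS, so reads kept only at a single match could reach nearly all of each window.

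Peaks were found in every library at 8 of the 10 genes, in the wild type alone at HTA11 and in no library at HTA4. Over all protein-coding genes 58.1% had a peak in all 4 libraries and 12.4% had none in any. In 7 of the 10 genes the strongest peak reached a −log10 q-value of 5 in every library, against 28.8% of all genes. The number of peaks at the 10 genes was 15 and 18 in the wild type, against 16 and 17 in the mutant, or 16.5 ± 2.12 and 16.5 ± 0.707 (SD, n = 2 each). The difference was 0 (exact two-sided permutation p = 1).

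Among the 10 genes, the 4 H2A.Z genes spanned the whole range of strength. HTA8 had the strongest peak of all 10 genes in every library, HTA9 stood in the upper part of each list, HTA11 was weak where it was called at all, and HTA4 was not called. Their coding sequences were 57.1% to 81.8% identical to each other. The closest pair, HTA8 and HTA11 at 81.8%, were the strongest and the weakest of the H2A.Z genes with a peak.

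At HTA8 (chromosome 2, 16219220 to 16220928, minus strand) the strongest peak lay at percentiles of 96.7 and 98.9 in the wild type, against 98.5 and 98.8 in the mutant. Its fold enrichment was 11.2 and 14.5 in the wild type, against 13.0 and 13.2 in the mutant. Both measures overlapped between genotypes, and the percentile differed by 0.81 (exact two-sided permutation p = 1). The summit was far from the HTA8 TSS, at −714 in both wild-type libraries and at −775 and −785 in mbd9-3. The shift of −66 bp in mbd9-3 separated the genotypes (exact two-sided permutation p = 0.33, the lowest that 6 label assignments allow). The called interval held further summits: mbd9-3 replicate 2 also listed one at −721 with a fold enrichment of 11.0, and wild type replicate 2 one at −641 with 11.3. The range of the strongest summit over the 4 libraries was 71 bp, against a median of 65 bp over all 15935 genes with a peak in every library.

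This accessible site is shared with a neighbour. AT2G38820 starts 887 bp upstream of HTA8 on the opposite strand, and the strongest summits lay 173 bp before its TSS in wild type and 112 and 102 bp before it in mbd9-3. To which of the genes the site belongs cannot be told from peak positions. At its own TSS HTA8 had only small peaks, at −24 in wild type replicate 1 with a fold enrichment of 3.35 and at 3 in mbd9-3 replicate 1 with 2.67. With 500 bp upstream in place of 1 kb, HTA8 no longer had a peak in all 4 libraries. The printed stretch of HTA8, which spans all 4 strongest summits, held none of the 6 motifs.

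HTA9 (chromosome 1, 19645236 to 19646485, plus strand) was the only H2A.Z gene with a peak at its own TSS in every library. Its percentiles were 75.3 and 87.9 in the wild type, against 85.4 and 77.1 in the mutant, with the wild-type libraries at both the lowest and the highest value. Ranked among the strongest peaks of all genes, HTA9 stood at percentiles of 60.1 and 77.0 in the wild type, against 74.9 and 64.0 in the mutant. Fold enrichment was 5.30 and 8.01 in the wild type, against 6.42 and 5.82 in the mutant. The summits fell at 8, 13, 17 and 34 bp after the TSS in the 5′ untranslated region (UTR), the 2 smaller distances in wild type. This difference of 15 bp separated the genotypes (exact two-sided permutation p = 0.33, the lowest that 6 label assignments allow). The range of 26 bp was below the median over all genes with a peak in every library. The gene upstream, AT1G52730, ends 25 bp before HTA9 on the same strand, so HTA9 has almost no intergenic promoter.

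HTA11 (chromosome 3, 20196140 to 20197726, plus strand) had peaks in the wild type but none in either mbd9-3 library, a pattern seen at 1.75% of all genes. The peaks were weak. Wild type replicate 1 listed 1 at −981 with a fold enrichment of 2.91 and a pileup of 7 tags. Wild type replicate 2 listed 3, at −987 with 3.18, at 7 in the 5′ UTR with 3.49 and 10 tags, and at 1225 in a coding exon with 2.22. Only the upstream site was shared by the wild-type libraries, and the peak at the TSS was found in the deepest library alone.

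The mbd9-3 libraries differed in what lay near this window. In mbd9-3 replicate 1 a peak of 5 tags with a fold enrichment of 2.21 lay at −1006, which is 6 bp outside the window and 19 and 25 bp from the wild-type summits. In mbd9-3 replicate 2 the nearest upstream summit was at −6314. The lowest background of that library was 1.79 tags, and its list was the shortest, at 37609 peaks. Wild type replicate 1, which had a call, had a lowest background of 1.75 tags and 44004 peaks. Whether depth accounts for the missing call was not tested. With 2 kb upstream HTA11 was called in 3 libraries, with 500 bp in 1, and among peaks with a −log10 q-value of at least 5 in none. The upstream site also lay in the window of AT3G54550, which starts 1477 bp upstream on the opposite strand.

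HTA4 (chromosome 4, 7884516 to 7885982, plus strand), a divergent H2A.Z-type gene, had no peak in any library. Its coding sequence was the most distant of the H2A.Z genes from the others, 57.1% to 64.9% identical to them and 46.2% to 47.95% identical to canonical ones. The nearest summits outside its window were downstream, at 2631 with a fold enrichment of 4.00 in wild type replicate 1 and at 2639 with 6.62 in mbd9-3 replicate 1. In the other libraries the nearest summits were upstream, at −5664 and −5669. A missing call means that accessibility did not pass the threshold of the authors' peak caller at this depth, not that the promoter was closed.

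The 4 canonical H2A genes all had a peak in every library, and 3 of them had the strongest summit within 150 bp of the TSS in all 4. Together with HTA9 this made 4 of the 8 genes called throughout, against 34.1% of all such genes. The median distance from the TSS over the canonical genes was between 53.5 and 71.5 bp in the 4 libraries. Over all genes with a peak in the library, the median ran from 170 to 311 bp. Coding identity among them was 80.5% to 87.5%.

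HTA13 (chromosome 3, 7229390 to 7230146, plus strand) had the smallest range of summit position among the 8 genes called throughout. Its percentiles were 92.9 and 95.3 in the wild type, against 94.1 and 89.9 in the mutant, and the genotypes overlapped. The strongest summit was at −51, −58, −51 and −58 in wild type replicates 1 and 2 and mbd9-3 replicates 1 and 2, a range of 7 bp and a genotype difference of 0 bp (exact two-sided permutation p = 1). These summits stood 3 or 10 bp downstream of the octamer shown in capitals above.

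HTA10 (chromosome 1, 18926811 to 18927746, plus strand), the other octamer gene, had exactly 1 peak in each library. Percentiles were 74.2 and 93.6 in the wild type, against 85.6 and 82.9 in the mutant, and again the wild-type libraries held the lowest and the highest value. The summits at −58, −19, −12 and −49 all fell between its octamers. Wild type replicate 1 and mbd9-3 replicate 2 had summits nearer the upstream copy, at 9 and 18 bp, and the other libraries nearer the downstream copy, at 9 and 2 bp. The position differed by 8 bp between genotypes (exact two-sided permutation p = 0.667).

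HTA2 (chromosome 4, 13637236 to 13638449, minus strand) had its summit at −108 and −105 in the wild type, against at −63 and −36 in the mutant. The genotypes did not overlap and the summit lay 57 bp closer to the TSS in mbd9-3 (exact two-sided permutation p = 0.33, the lowest that 6 label assignments allow). Each library had a single called summit in this interval. Strength overlapped, with percentiles of 94.7 and 88.0 in the wild type, against 87.5 and 89.8 in the mutant. Both mbd9-3 libraries listed a further small peak at a like place, at −676 with a fold enrichment of 3.43 and at −667 with 2.43, where wild type listed none and wild type replicate 2 had one at −924 with 2.27.

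HTA1 (chromosome 5, 22196287 to 22197492, plus strand) was the weakest of the 8 genes called throughout in every library. Its percentiles were 58.6 and 64.6 in the wild type, against 76.4 and 48.3 in the mutant, so that the mbd9-3 libraries held both extremes. The strongest summit was at −78, −85 and −86 in the first 3 libraries, 12 to 20 bp downstream of the site II element in the printed stretch, and at −461 in mbd9-3 replicate 2. That library listed the proximal site as well, at −58, with a fold enrichment of 2.51 and 6 tags, and wild type replicates 1 and 2 listed the distal one at −486 and −455. The difference of −192 bp between genotypes was thus set by mbd9-3 replicate 2 alone and was −4.5 bp without it (exact two-sided permutation p = 0.33 over all 4 libraries).

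The H2A.X genes, 88.3% identical in coding sequence, both had a peak in the upper part of each list, but at different places. Ranked among the strongest peaks of all genes, HTA3 stood lowest in wild type replicate 1, at a percentile of 63.4. HTA5 (chromosome 1, 2846894 to 2848100, minus strand) had its strongest summit inside the transcribed region, at 254 and 259 in the wild type, against 255 and 241 in the mutant, in a 5′ UTR whose coding start lies at 424. Percentiles were 90.6 and 97.4 in the wild type, against 95.8 and 91.5 in the mutant and overlapped. AT1G08890 starts 49 bp upstream on the opposite strand, so the summits were 290 to 308 bp before that TSS.

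HTA3 (chromosome 1, 20414316 to 20415287, minus strand) had 2 sites in every library, a proximal one at −27 to −41 and a distal one at −313 to −353. Fold enrichment at the proximal site was 5.56 and 8.08 in the wild type, against 4.03 and 8.93 in the mutant. The proximal peak of mbd9-3 replicate 1 was the weakest of these, at a percentile of 60.7 and a −log10 q-value of 4.72. At the distal site fold enrichment was 5.03 and 8.85 in the wild type, against 8.14 and 5.34 in the mutant. Which site was the stronger changed within each genotype, with wild type replicate 1 and mbd9-3 replicate 2 highest at the proximal site and the other libraries at the distal one, so that the range of the strongest summit was 313 bp. In 3 libraries the distal summit fell at −350 to −353, in or within 2 bp of the site II element shown in capitals at −351 to −346, a motif that 2.43% of all genes hold in this stretch. Fold enrichment overlapped between genotypes at each site. The proximal summits, at −40 and −27 in wild-type replicates 1 and 2 and at −41 in both mbd9-3 libraries, did not overlap but came within 1 bp of each other.

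HTA3 was the only member whose percentiles did not overlap between genotypes. They were 77.7 and 91.1 in the wild type, against 92.2 and 93.4 in the mutant, or 84.4 ± 9.42 and 92.8 ± 0.858 (SD, n = 2 each), a difference of 8.44 (exact two-sided permutation p = 0.33, the lowest that 6 label assignments allow). Both mbd9-3 libraries lay above both wild-type libraries at 12% of all 15935 genes and the reverse held at 22.1%, against 1 and 0 of the 8 members. The limma fit gave HTA3 a score difference of 0.58 with an SE of 0.39 and an adjusted p of 0.954 (Benjamini-Hochberg over 15935 genes). Without wild type replicate 1 the difference in percentile was 1.78.

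**Figure D1:**
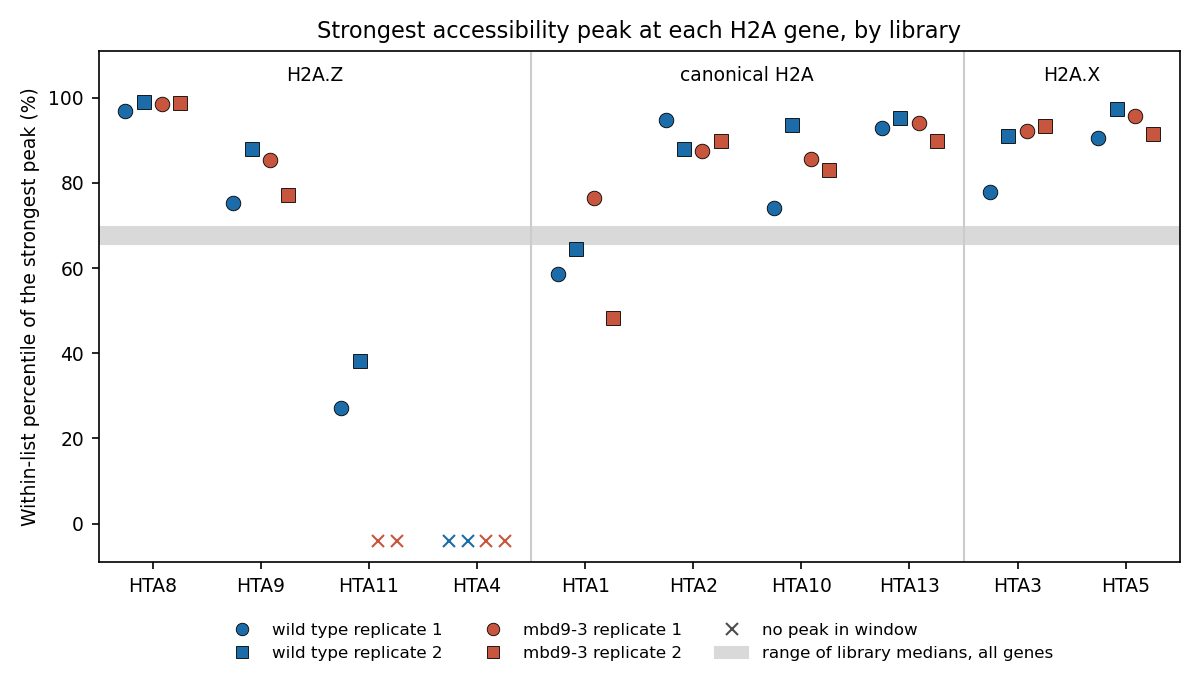
Within-list percentile of the strongest peak (vertical axis, percent) at each of the 10 genes, with 1 symbol per library and crosses where no peak was called. The grey band spans the library medians over all genes with a peak in that library, 65.6 to 69.6. HTA8 is at the top in every library, HTA1 is the lowest of the genes called throughout, HTA11 has values in wild type alone and HTA4 has none.

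Across the whole table no gene passed the test of the genotype difference. The limma test of the normal scores of within-list ranks called 0 of 15935 genes at an adjusted p under 0.05 (0% called), while 799 (5.01%) had an unadjusted p under 0.05, and none of these was among the 8 members. The smallest adjusted p over all genes was 0.945. Among the members adjusted p ran from 0.954 to 0.9997, and the median absolute difference in score was 0.14 against 0.29 over all genes. HTA8, HTA9 and HTA1 had positive differences of 0.21, 0.07 and 0.21, and HTA2, HTA13, HTA5 and HTA10 had differences of −0.15, −0.12, −0.03 and 0.00, each smaller than its SE.

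**Figure D2:**
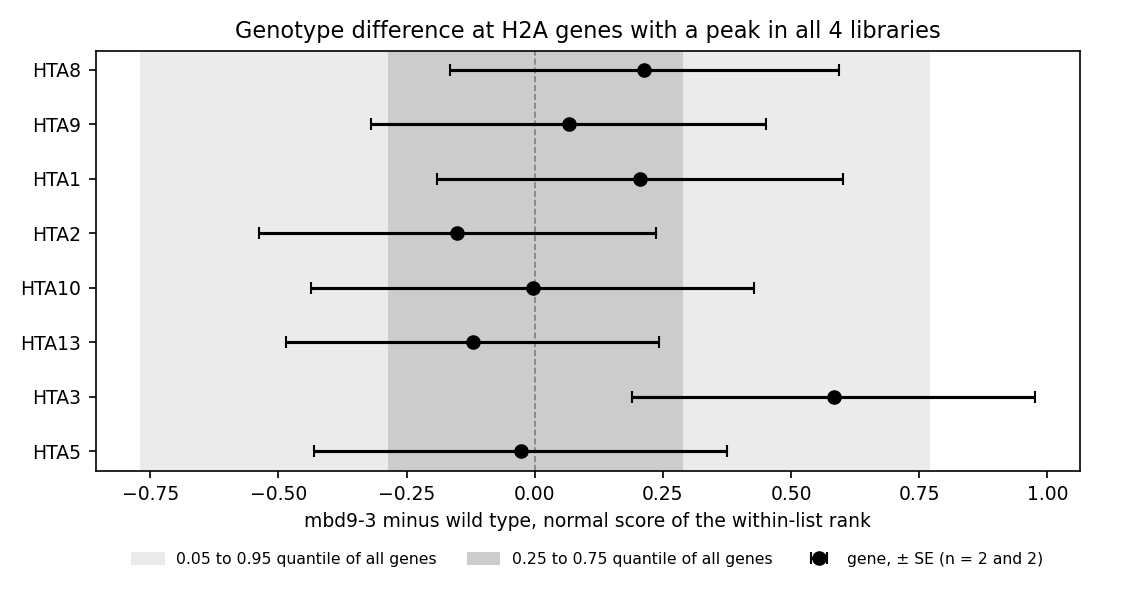
Difference between mbd9-3 and wild type in the normal score of the within-list rank (horizontal axis) for the 8 genes with a peak in all 4 libraries, with bars of 1 SE (n = 2 libraries per genotype). The grey bands run from the 0.25 to the 0.75 and from the 0.05 to the 0.95 quantile of all 15935 genes. HTA3 lies furthest from 0, at 0.58, and inside the wider band.

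By mean percentile over the 4 libraries the order was HTA8 at 98.2, HTA5 at 93.8, HTA13 at 93.0, HTA2 at 90.001, HTA3 at 88.6, HTA10 at 84.1, HTA9 at 81.4 and HTA1 at 62.0. The ranges of every pair of neighbours in this order overlapped, HTA8 from 96.7 to 98.9 with HTA5 from 90.6 to 97.4 and HTA9 from 75.3 to 87.9 with HTA1 from 48.3 to 76.4 included. The median of these 8 means was 89.3, and over all genes called throughout it was 73.2.

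HTA11 and HTA4 decided the comparison of the classes by strength. With genes lacking a peak at a percentile of 0, the median over the 4 H2A.Z genes minus that over the 4 canonical genes was −32.3 and −27.8 in the wild type, against −43.8 and −47.8 in the mutant. Over genes with a peak, the difference of H2A.Z minus canonical was −8.30 and −2.83 in the wild type, against 5.41 and 1.60 in the mutant, but HTA11 entered the median only in wild type. With HTA8 and HTA9 alone in place of the H2A.Z class it was 2.44, 2.67, 5.41 and 1.60, above 0 in every library. In mbd9-3 the direction of the class comparison therefore depended on how genes without a call were treated. In wild type the difference was above 0 only when HTA11, which was called there, was left out as well. Its size also rested on the distant site of HTA8. With absent genes at 0 the mean over the 4 libraries was −37.9, and −74.0 with 500 bp upstream. The comparison carried no test because genes of a class are not replicates.

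**Figure D3:**
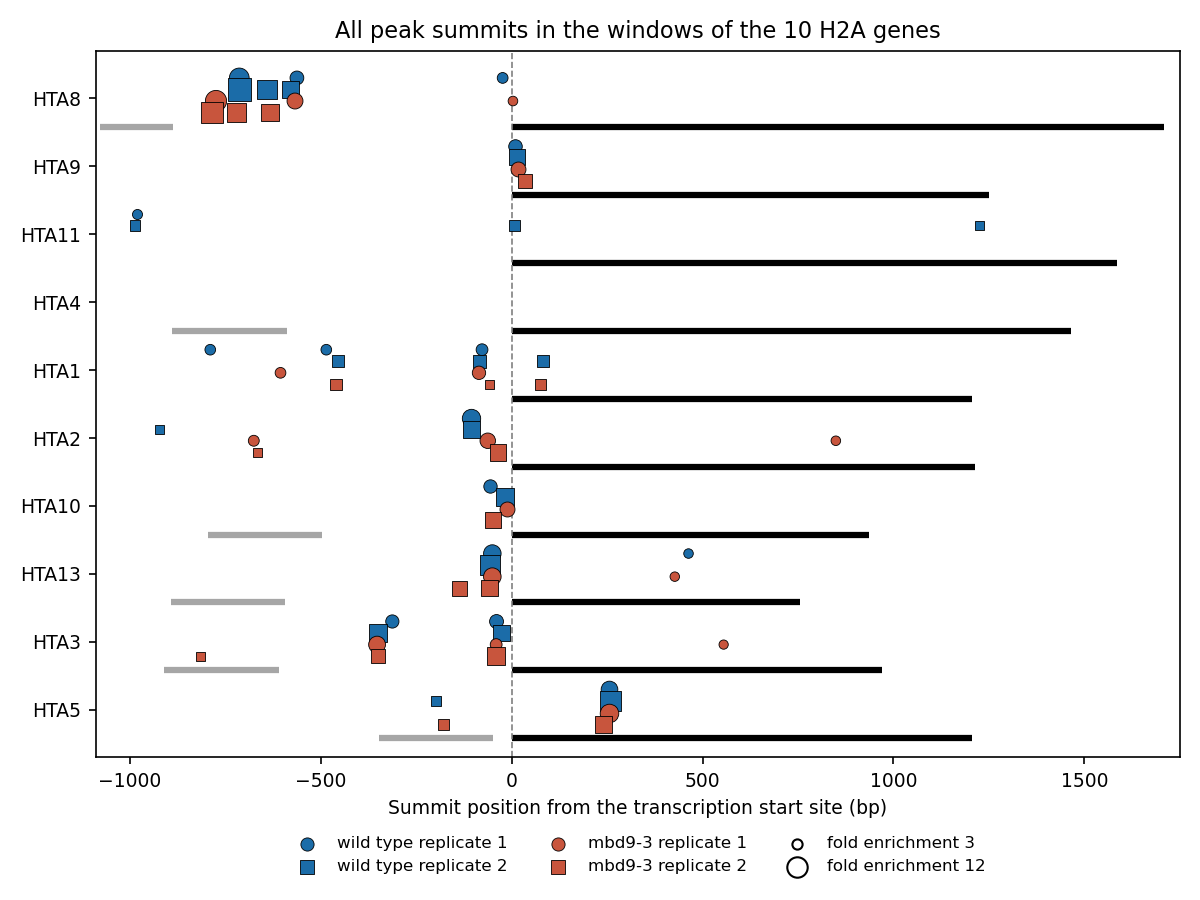
All summits counted for the 10 genes, placed by distance from the TSS (horizontal axis, bp), with 1 row of symbols per library and symbol area in proportion to fold enrichment. Black bars are the genes and grey bars mark where a neighbour on the opposite strand begins. The canonical genes have their largest symbols just before the TSS, HTA8 from −714 to −785, HTA3 at 2 sites and HTA5 from 241 to 259 inside the gene.

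The positions of the strongest summits are described by class, with no test. The 2 H2A.Z genes called throughout had the strongest summit either just inside the transcript, at HTA9, or beside the TSS of a neighbour, at HTA8. The 4 canonical genes, each seen in 4 libraries, had it upstream of the TSS throughout, from −12 to −108 in 15 of the 16 values, and the exception was the −461 of HTA1 in mbd9-3 replicate 2. Summits of other classes fell in the same range, those of HTA3 at −40 and −41 in 2 libraries and of HTA6 from −79 to −92 in all 4. The median range over the 4 libraries was 58.5 bp for the 8 genes and 65 bp for all genes with a peak in every library. Summits at 4 genes, HTA8, HTA9, HTA1 and HTA2, separated the genotypes. In mbd9-3 they lay further upstream at 2 of the 8 genes and further downstream at 2. The backgrounds were 15.6% and 15.5% of all genes with a peak in every library, shares of the same order given 8 genes.

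**Figure D4:**
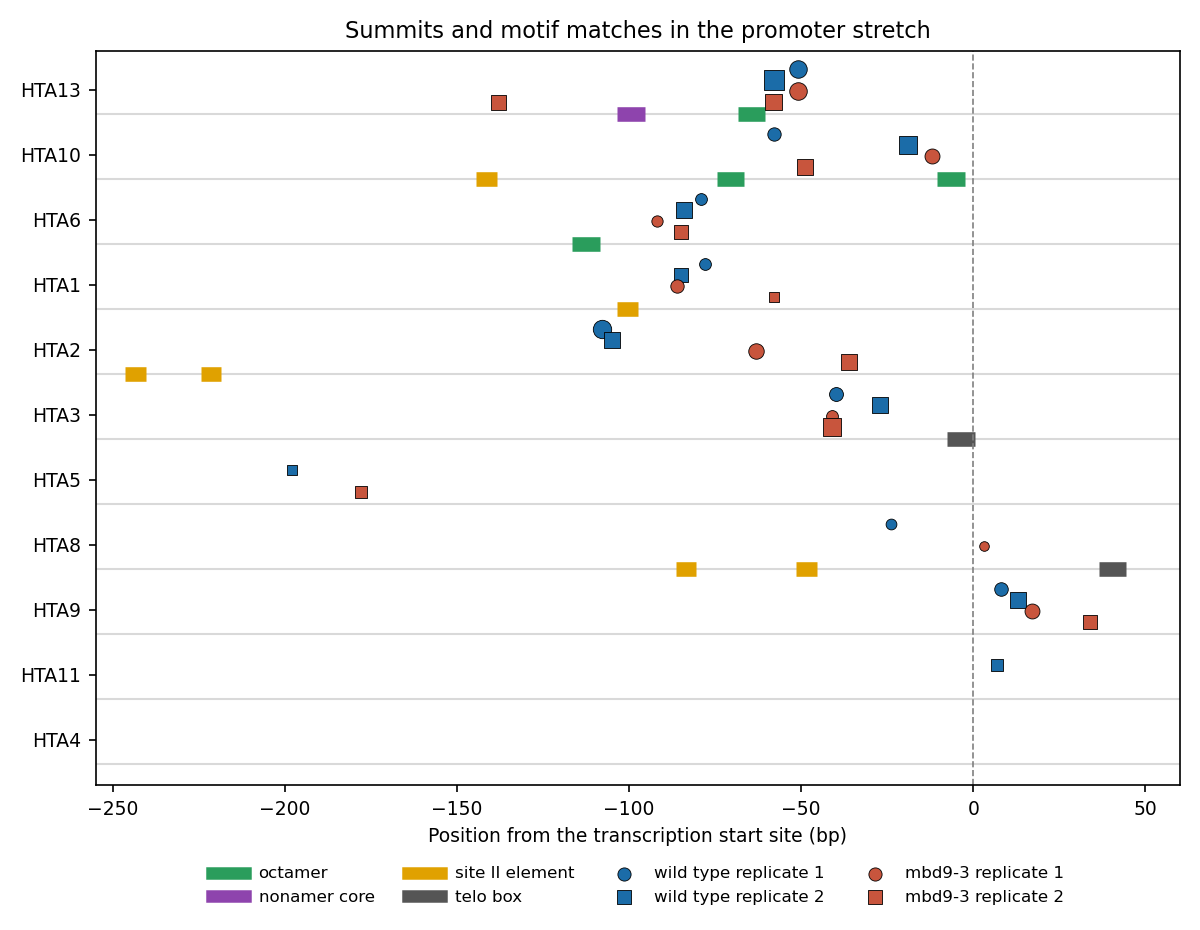
Summits from 250 bases before to 49 after the TSS (horizontal axis, bp), with 1 row of symbols per library and symbol area in proportion to fold enrichment, above the motif matches as coloured blocks. Summits of HTA13, HTA10 and HTA6 lie beside octamer blocks, which no H2A.Z gene holds.

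The H2A.W genes, the remaining class of the family, gave a like spread. HTA7 was near the top of each list, at percentiles of 98.4 and 99.0 in the wild type, against 99.4 and 97.6 in the mutant, with paired summits near the TSS in each library, at 16 to 27 after it and −52 to −63 before it. HTA6 held an octamer at −116 to −109 and its summits, at −79 and −84 in the wild type, against −92 and −85 in the mutant, stood 17 to 30 bp downstream of it. HTA12 was called in wild type replicate 2 and mbd9-3 replicate 1 alone.

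Of 13 genes whose products place or remove H2A.Z, 12 had a peak in all 4 libraries, the exception being RIN2. The median of the mean percentiles of these 12 genes was 63.7, with 0 adjusted calls. Among the 12, SWC2, a SWR1 subunit, had the highest mean percentile at 85.3, and PIE1, the catalytic ATPase, the lowest at 30.7. Both wild-type libraries lay above both mbd9-3 libraries at 5 of the 12, ARP6, SWC2, ARP4, NRP1 and NRP2, and the reverse held at SEF, beside backgrounds of 22.1% and 12%. The largest difference was at ARP4, with 66.3 ± 5.71 for the wild type against 19.3 ± 23.6 for the mutant (SD over 2 libraries each), where the adjusted limma p was 0.945 (Benjamini-Hochberg). The strongest ARP4 summit was at 40 and 31 in the wild type, against −44 in mbd9-3 replicate 2. In mbd9-3 replicate 1 the only peak was in a coding exon at 3411, so the ARP4 values are not of a single site.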

How the data were processed

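ATAC-seq was analysed in 2 wild-type and 2 mbd9-3 libraries from flowers, grouped by sample title. Adaptors were removed by the authors using trim_galore, single-match reads were placed on TAIR10 by Bowtie, and SAMtools served to drop duplicate and organelle reads (the submitters' processing notes list Trim Galore, Bowtie2 and SAMtools). The peak caller, its options and any shift for Tn5 insertion are not given in the sources used here. Peaks were called per library without a control, so a weak site may pass in a deeper library and fail in a shallower one.

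In the deposited lists the fold enrichment is a ratio of pileup to background in the same library. The −log10 p-values and −log10 q-values deposited by the authors were used to filter or rank, and the deposited score was read but not analysed. The other deposited values used were interval and summit coordinates, which were made 1-based. Where no summit was listed the interval's middle was taken. Pileup and background were solved jointly from both listed values, with (pileup + 1)/(background + 1) as the fold and a Poisson tail as the p-value, and a whole pileup within a tolerance of 0.0001 was found for at least 99.8% of rows in each list. Absolute depth is unknown, so no intervals were formed.

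Genes and sequences were those of NCBI RefSeq for TAIR10.1, which shares its nuclear chromosomes with TAIR10. Genotypes were compared per gene with an exact two-sided permutation test over libraries and across all genes with limma 3.58.1 in R 4.3.3 on normal scores of within-list ranks, with Benjamini-Hochberg adjustment at 0.05. Simulated data with known changes were used to test the limma step. These changes were larger than any score difference at the 10 genes, so they do not show what it detects at that size. Other steps ran in Python 3.11.15 (pandas 2.3.3, numpy 2.4.6, matplotlib 3.10.9, scipy 1.17.1). Alternatives were a −log10 q-value of at least 5, equal list lengths, 500 bp or 2 kb upstream, the promoter window alone, ranks by p-value, rows without a summit left out, a replicate block, and each library left out. The limma step was also run with absent libraries at the lowest rank, and on regions merged across the lists, where no member was tested. The 10 genes are always named, as are the H2A.W genes, and of the H2A.Z placement list the genes named are the highest, the lowest and those whose genotypes do not overlap. Members, lists, motifs and tests were chosen with earlier results of these data known.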

Additional observations from a re-analysis of the deposited data

How the results depend on the processing

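The number of genes with a peak in all 4 libraries (7 or 8) and the mean difference in peak number between genotypes (−1.5 to 1.5) stayed near the reported values under every alternative run. The difference of H2A.Z minus canonical H2A in median percentile, with absent genes at 0, had a mean of −37.9 over the 4 libraries. It was −74.0 with 500 bp upstream, where HTA8 was lost in part, and −1.03 when genes without a peak were left out, an alternative chosen after seeing the data. It ran from −41.3 to −34.6 with 1 library left out. HTA11 had a peak in 3 libraries with 2 kb upstream, 1 with 500 bp and 0 at a −log10 q-value of at least 5, also chosen after seeing the data. The limma test called 1 gene with 2 kb upstream and 77 without mbd9-3 replicate 2 (the cause was not tested), none of them a member, and 0 under the other 12 alternatives, where 411 to 1206 genes had an unadjusted p under 0.05. The lowest adjusted p of a member ran from 0.824 to 0.998. The genotype difference in percentile changed sign at HTA9 (1.32) and HTA5 (0.219) with equal list lengths. With 1 library left out the percentile difference ran from −0.287 to 1.91 at HTA8, −6.67 to 6.01 at HTA9, −13.3 to 14.8 at HTA1, −6.03 to 0.691 at HTA2, −9.32 to 10.07 at HTA10, −3.76 to 3.01 at HTA5 and, with no change of sign, 1.78 to 15.1 at HTA3 and −4.24 to −0.0608 at HTA13. The position difference changed sign at HTA10 (−11.5 to 27.5 bp) and HTA3 (−157.5 to 154.5 bp) and kept it at the other genes with a difference.

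The replicate numbers are not said to mark shared plants or days, and over 15935 genes the replicate 1 minus replicate 2 differences of the genotypes had r = 0.118. With the replicate number as a block limma called 0 genes, 1085 had an unadjusted p under 0.05 and no member's call changed. Depth limits what a missing call means at HTA11 and HTA4.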
